A study of Drosophila melanogaster with 12 samples.

Results

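Juvenile hormone is the sesquiterpenoid of the insect corpora allata that keeps larval moults from turning into metamorphosis. It is bound inside the cell by the paired bHLH-PAS receptors Met and gce, which switch on Kr-h1, a zinc-finger repressor of metamorphic genes. The hormone is cleared by esterases, which cut its methyl ester, and by epoxide hydrolases, which open its epoxide ring.

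The genes described here are 10 named members of this pathway, taken as the probe sets whose gene symbol in the deposited annotation is Jhe, Jhedup, Jheh1, Jheh2, Jheh3, Kr-h1, JhI-1, JhI-26, Met or gce. They were chosen by name, with earlier results of these data known. All 10, of 12348 genes named on the array, matched a RefSeq gene, and each had 1 probe set of the 18769 that are not Affymetrix controls. JhI-1 is listed as RNaseZ in RefSeq. In the gene order of RefSeq assembly Release 6, Jhedup lies beside Jhe with 0 protein-coding genes between them, and Jheh1, Jheh2 and Jheh3 follow each other in the same way.

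Expression was measured on 12 Affymetrix Drosophila_2 arrays of third-instar (L3) Drosophila melanogaster larvae raised at 25 degrees, in 4 groups of 3. MiT discs are wing imaginal discs with nub-Gal4 and UAS-MiT, labelled as overexpressing the transcription factor MiT, and control discs carry nub-Gal4 without it. Mutant hindgut-tubule samples hold hindgut and Malpighian tubules of MiTTZ2/Df(4)TZ larvae (EMSTZ2 in the titles), and wild-type samples hold the same organs. The nub-Gal4 driver acts in the wing-forming part of the disc, whereas whole discs were profiled, and Df(4)TZ is by its name a chromosome 4 deficiency. The labels give neither the background strains nor whether replicates came from separate animals, so a p-value measures only the spread between these samples, which may be technical.

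Values are log2 expression levels made by the authors with GCRMA. A level of 4 was taken as the limit under which readings are not told apart from background, and probe sets that reached it on at least 3 arrays were tested. Where 1 group's mean lay under that limit, its arrays were raised to 4 unless they read higher, and the resulting fold is a lower bound, written "at least". Each comparison of 2 groups was fitted with limma on its 6 arrays, and every adjusted p is limma's, with Benjamini-Hochberg adjustment over the 8678 probe sets tested.

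Tissue and array checks preceded the results. Of 9 Malpighian tubule markers, all 9 were over the limit on at least 1 array of each hindgut-tubule group, though Dh31-R averaged 3.95 ± 0.23 in wild type (SD, n = 3) and read higher in the discs. Uro, Irk2 and salt were under it on every disc. Of 10 wing disc markers, 8 were over it on at least 1 array of each disc group, while rn and ptc were under it on all 12 arrays. The Mitf probe set averaged 4.41 ± 0.20 in mutant and 6.59 ± 0.44 in wild-type hindgut-tubule samples (adjusted p = 0.0118), and 8.11 ± 0.10 in MiT discs and 8.0 ± 0.13 in control discs (SD, n = 3 each; adjusted p = 0.377). The overexpression label is therefore not checked by the array. Array number 2 of both hindgut-tubule groups stood apart from its replicates. Correlations between replicates went down to 0.943 in the mutant and 0.956 in wild type, against 0.982 in MiT discs and 0.984 in control discs. The hindgut-tubule samples contained fat body transcripts, with all 7 fat body markers over the limit on at least 1 array, as in the discs. In samples of bulk tissue, fewer cells of a type and less RNA per cell cannot be told apart.

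In the hindgut and tubules, Jhedup was over background in the mutant alone: it read at background in wild type and in all discs, and rose at least 14.0-fold in the mutant. In the wing discs, Jheh1, Jheh2 and JhI-26 rose in the MiT discs. Jhe, the esterase itself, was read only in hindgut and tubules, where its mutant and wild-type values overlapped. Kr-h1, the direct target gene of the receptors, passed no test between genotypes.

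**Figure D1:**
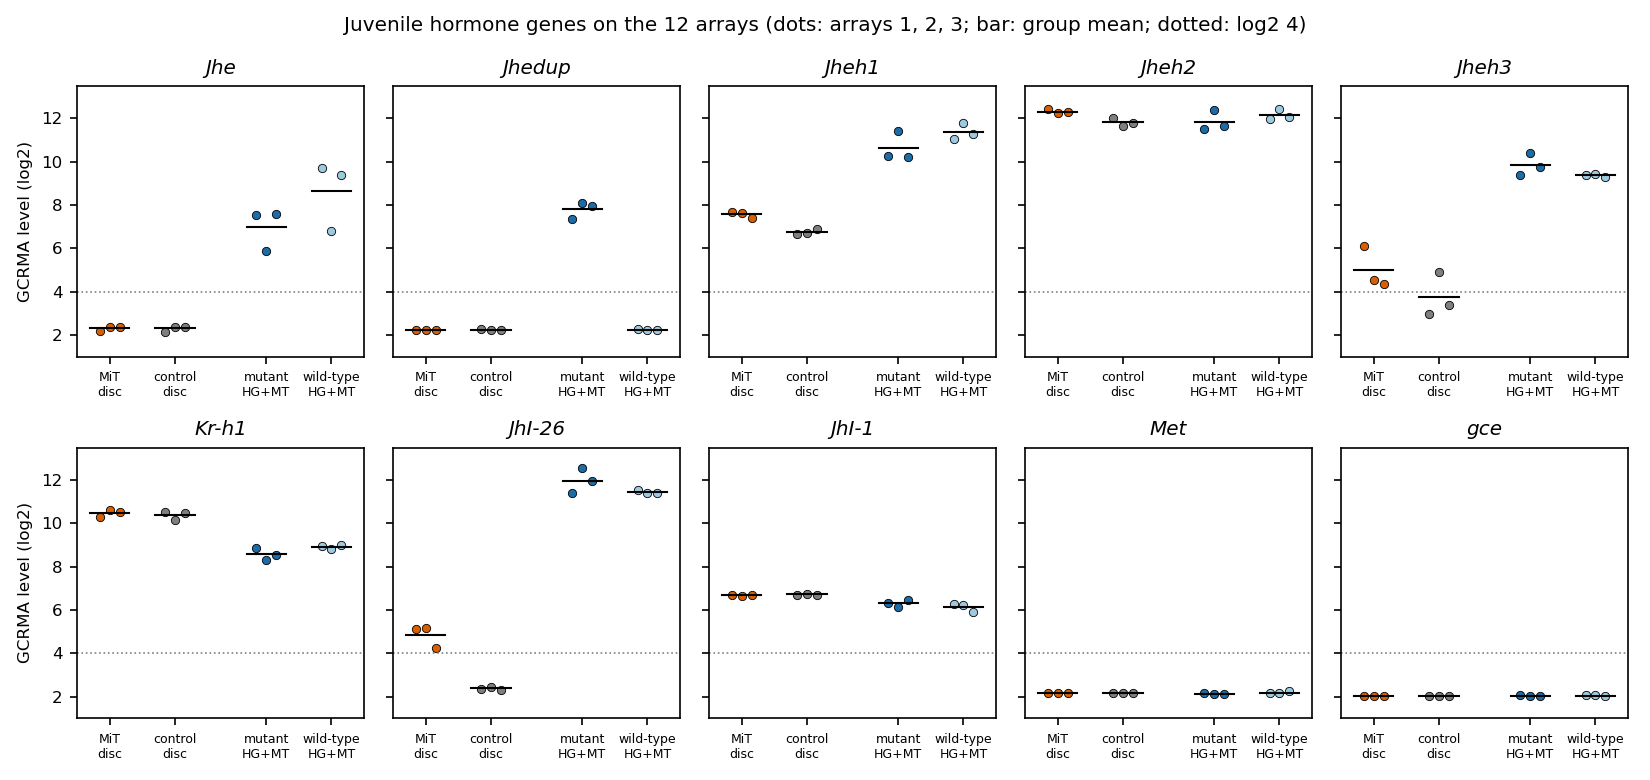
GCRMA level (log2) of the 10 juvenile hormone genes on each array, with MiT discs left of control discs and mutant left of wild-type hindgut-tubule samples (HG+MT). Dots are arrays 1 to 3, the bar is the group mean and the dotted line is the log2 level of 4. Jhedup leaves background in the mutant samples alone (7.34 to 8.11), and Met and gce lie under the line on every array.

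Jhedup encodes a carboxylesterase named as a duplicate of Jhe. Its log2 level was 7.34, 8.11 and 7.98 in the mutant hindgut-tubule samples, against 2.27, 2.26 and 2.23 in wild type. The groups did not overlap, and the wild-type readings lay as low as those of the discs (2.23 to 2.28). The fitted log2 difference was 5.56 (95% interval 5.01 to 6.11, SE 0.22, adjusted p = 0.000441). Because the wild-type level is only bounded, the change is at least 14.0-fold. The probe set passed the filter through the 3 mutant arrays alone and so had to differ between these groups. With no filter, over 18769 probe sets, the adjusted p was 0.00321. In the authors' deposited table its signed fold was 47.1 with a step-up p of 1.89e-06. The mutant level was 5.07, 5.85 and 5.75 above the wild-type array of the same number. All 16 alternative settings called it, with adjusted p up to 0.00971. Without the number 2 arrays the difference was 5.41 (adjusted p = 0.00715). Settings that kept a filter share the selection through the mutant arrays, so their calls are no separate support.

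Of all named probe sets tested, those most like Jhedup over the 12 arrays were ppk12 (Pearson r = 0.999), which encodes a sodium channel subunit, CG11149 (r = 0.997) and CG7191 (r = 0.995). These correlations describe 12 arrays that fall into 4 groups, and a probe set that is over background in a single group will correlate highly with any other of that kind. CG7191 averaged 10.04 ± 0.36 in mutant and 2.38 ± 0.05 in wild-type samples (SD, n = 3 each), at least 65.6-fold apart, and like Jhedup it was over background in the mutant alone and had to differ. Beside the mutant Jhedup levels, the log2 sum of 9 larval muscle markers was 16.25 to 16.80 in the mutant and 15.93 to 16.05 in wild type, and that of 8 midgut markers, of which 7 were under the limit, was 9.19 or more in the mutant and 7.01 to 9.23 in wild type. Their part in the Jhedup result was not tested.

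Jhe hydrolyses juvenile hormone and is known as an enzyme of the larval fat body and hemolymph. It read 7.56, 5.90 and 7.58 in mutant hindgut-tubule samples, against 9.73, 6.83 and 9.38 in wild type. The groups overlapped, since wild-type array 2 lay under mutant arrays 1 and 3. Jhe averaged 7.01 ± 0.97 in the mutant and 8.65 ± 1.58 in wild type (SD, n = 3 each), a log2 difference of -1.64 that did not pass the test (95% interval -3.84 to 0.57, adjusted p = 0.406). Array number 2 was the lowest of its group in both genotypes, and within each number the mutant array lay under the wild-type one, by 2.17, 0.93 and 1.80. With the array number as a block the adjusted p was 0.0728. Without the number 2 arrays of both groups, a fit added after the data were seen, Jhe was lower in the mutant by 1.99 on the log2 scale (adjusted p = 0.0138).

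Fat body transcripts varied between the same arrays. The summed signal of 7 fat body markers (Lsp1alpha, Lsp1beta, Lsp1gamma, Lsp2, Fbp1, Fbp2 and apolpp) had a log2 value of 15.25, 17.08 and 16.97 in the mutant and 16.03, 17.21 and 16.53 in wild type. Array 2 had the highest sum and the lowest Jhe in each genotype. Mutant array 3, with a sum close to that of mutant array 2, had the highest mutant Jhe (7.58). Of the 7 fat body markers 0 passed limma's test between the hindgut-tubule genotypes, where 4.02% of all probe sets were called. Also 0 of them had an unadjusted p under 0.05, and 0 were called in the authors' deposited table. Their part in the Jhe values was not tested. In the discs Jhe read 2.15 to 2.39 on all 6 arrays.

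**Figure D2:**
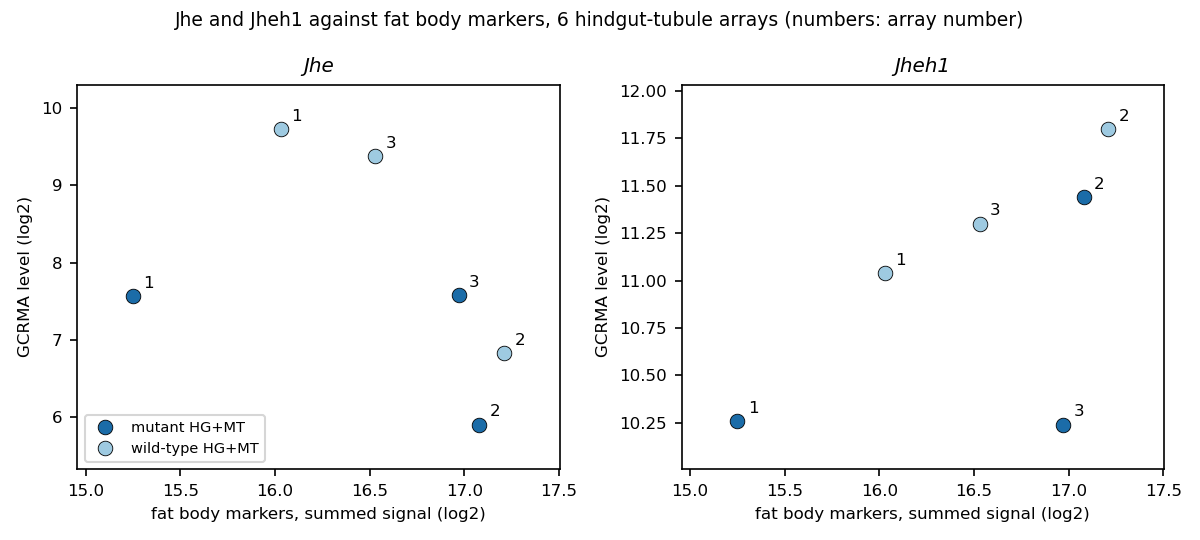
Log2 level of Jhe (left panel) and Jheh1 (right panel) against the log2 summed signal of 7 fat body markers on the 6 hindgut-tubule arrays, dark for mutant and light for wild type, numbered by array. Both number 2 arrays lie at the right, with the lowest Jhe (5.90 and 6.83) and the highest Jheh1 (11.44 and 11.80) of their genotype. Mutant array 3 lies close to mutant array 2 (sums of 16.97 and 17.08). It has the highest Jhe (7.58) and the lowest Jheh1 (10.24) of the mutant arrays.

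The 3 epoxide hydrolases convert the hormone or its acid to a diol, and also act on other epoxides. Jheh1 read 7.67, 7.62 and 7.41 in MiT discs, against 6.69, 6.73 and 6.91 in control discs. No MiT disc overlapped a control disc, and the rise was 1.73-fold (log2 difference 0.79, SE 0.10, adjusted p = 0.00426). Jheh2 read 12.42, 12.24 and 12.30 in MiT discs, against 12.01, 11.66 and 11.80 in control discs. It too did not overlap, and rose 1.41-fold (0.49, SE 0.11, adjusted p = 0.0198). Jheh3 read 6.10, 4.54 and 4.37 in MiT discs, against 2.99, 4.93 and 3.4 in control discs. Its groups overlapped and its difference of 1.23 did not pass (95% interval -0.42 to 2.87, adjusted p = 0.218).

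The calls of Jheh1 and Jheh2 depended on the spread they were measured against. With 1 variance shared by all 12 arrays the adjusted p was 0.13 for Jheh1 and 0.196 for Jheh2, and in the authors' deposited table the step-up p was 0.359 and 0.469. Jheh2 also missed the threshold without control disc 3 or any single MiT disc (adjusted p from 0.0503 to 0.0633), and without the filter (0.0515).

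In the hindgut-tubule samples none of the hydrolases passed the test. Jheh1 read 10.26, 11.44 and 10.24 in the mutant, against 11.04, 11.80 and 11.30 in wild type. Jheh2 read 11.53, 12.40 and 11.64 in the mutant, against 11.98, 12.46 and 12.09 in wild type. In both genes the mutant array lay under the wild-type one of the same number, by 0.79, 0.36 and 1.06 for Jheh1 and by 0.45, 0.06 and 0.45 for Jheh2, while the groups overlapped. Jheh3 read 9.40, 10.42 and 9.76 in the mutant, against 9.40, 9.44 and 9.30 in wild type, with mutant array 2 the highest. The log2 differences were -0.74 for Jheh1, -0.32 for Jheh2 and 0.48 for Jheh3 (adjusted p = 0.39, 0.616 and 0.422). Without the number 2 arrays Jheh1 passed as lower in the mutant (-0.92, adjusted p = 0.0383), while Jheh2 and Jheh3 did not.

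**Figure D3:**
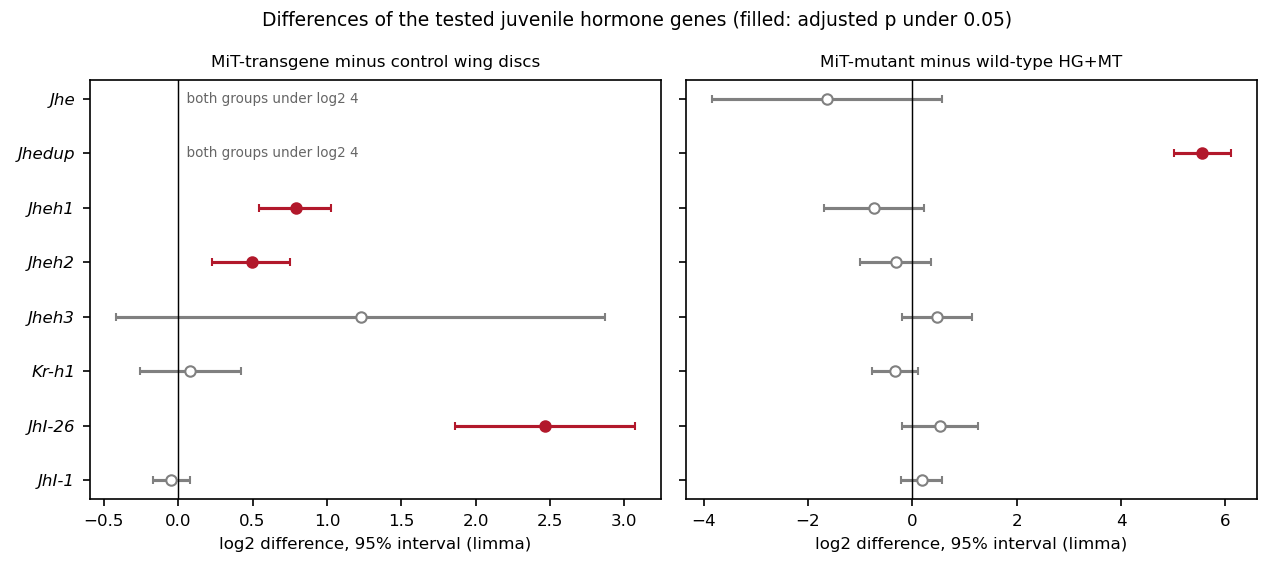
Fitted log2 differences with 95% intervals (limma) of the 8 tested genes, MiT discs minus control discs on the left and mutant minus wild-type hindgut-tubule samples on the right; the horizontal scales differ. Filled points passed the adjusted threshold of 0.05: Jheh1, Jheh2 and JhI-26 in the discs and Jhedup in the hindgut-tubule samples.

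The response genes gave different pictures. JhI-26 is named for its induction by the hormone. It read 5.11, 5.16 and 4.26 in MiT discs, against 2.36, 2.45 and 2.32 in control discs. Every MiT disc was over the background limit and every control disc under it, so the rise is at least 1.80-fold (fitted log2 difference 2.47, SE 0.25, adjusted p = 0.00207). In the authors' deposited table its signed fold was -5.52 with a step-up p of 0.00441; the sign of that column runs opposite to the difference used here. All 15 alternatives called it. JhI-26 read 11.42, 12.55 and 11.94 in mutant hindgut-tubule samples and 11.52, 11.42 and 11.38 in wild type, which overlapped (difference 0.53, adjusted p = 0.413).

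Tubule markers were read on the same discs. The log2 summed signal of 9 tubule markers was 7.08 to 7.39 in MiT discs and 7.33 to 7.80 in control discs. Of the 9, 7 and 6 were under the background limit on all discs of each group. Those over it were Dh31-R (mean 5.97 in MiT discs, 5.96 in control discs) and ry (5.74 and 6.27). In control discs Lkr was also over it on at least 1 array (mean 4.25). Any part of tubule tissue in the JhI-26 disc values was not tested. The most similar probe sets to JhI-26 over the 12 arrays were the cytochrome P450 gene Cyp6a23 (r = 0.998), CG10512 (r = 0.998) and Efr (r = 0.997). Cyp6a23 averaged 5.83 ± 0.21 in MiT discs and 2.92 ± 0.19 in control discs (SD, n = 3 each; adjusted p = 0.000244). The genes closest to Jheh1 were Spn43Ab (r = 0.997), CG8229 and CG9119 (both 0.993), and those closest to Jheh2 were Got2 (0.860), serp (0.841) and Cchl (0.840). The nearest to Jhe were CG31875 (0.995), CG15044 (0.994) and Sara (0.992). Those nearest to Jheh3 were Cyp12e1 (0.992), CG5381 (0.988) and GstE3 (0.988). The nearest to Kr-h1 were CG31388 (0.991), Tet (0.990) and CG5026 (0.989). Those nearest to JhI-1 were CG12316 (0.98), CG1671 (0.97) and Cdc5 (0.97).

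Kr-h1 is an early response gene of the receptors. It read 10.28, 10.62 and 10.50 in MiT discs, against 10.53, 10.15 and 10.48 in control discs. The groups overlapped almost fully (difference 0.08, 95% interval -0.26 to 0.42, adjusted p = 0.719). In the hindgut-tubule samples it read 8.88, 8.32 and 8.55 in the mutant, against 8.94, 8.81 and 9.02 in wild type. Mutant array 1 lay within the wild-type range and the difference of -0.34 did not pass (95% interval -0.78 to 0.10, adjusted p = 0.385).

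JhI-1, which encodes the tRNA-processing enzyme RNase Z, varied little in the discs. It read 6.69, 6.65 and 6.70 in MiT discs, against 6.71, 6.76 and 6.71 in control discs, a difference of -0.05 (adjusted p = 0.553). In the hindgut-tubule samples it read 6.31, 6.16 and 6.45 in the mutant, against 6.27, 6.22 and 5.90 in wild type, which overlapped (0.18, adjusted p = 0.621).

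Met and gce, the receptors, gave no usable reading. Over all 12 arrays Met read 2.10 to 2.25 and gce 2.01 to 2.07, both under the limit, so neither was tested and their values have no order. This says only that these probe sets did not rise over background here.

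In all, 8 of the 10 genes passed the filter. Of these 8, 3 were higher and 0 lower in MiT discs (0 lower also at an unadjusted p under 0.05 and in the authors' deposited table), where limma called 30.0% of all probe sets tested, 13.9% as higher and 16.1% as lower. In the mutant hindgut-tubule samples 1 of the 8 was higher and 0 lower (again 0 lower at an unadjusted p under 0.05 and in the authors' deposited table), where 4.02% of all probe sets were called, 2.1% as higher and 1.92% as lower. In the discs 3 of 8 lies near the share of 30.0% called in either direction, although all 3 were higher, where the share was 13.9%. Jhe and Jhedup read under the limit in both disc groups, and the count itself was not tested. Jhedup is 1 gene, and its part in the second count follows from the filter.

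Levels of the tested genes were also compared between the organs. Wild-type hindgut-tubule samples were set against control discs, which differ in genotype as well as tissue, so genotype and tissue cannot be told apart. Of the 8 genes 4 were higher and 2 lower in the hindgut-tubule samples, where 75.9% of all probe sets were called, 29.3% as higher and 46.6% as lower. The count called in either direction lies near the share over all probe sets. Jhe was at least 25.0-fold higher in the hindgut-tubule samples (8.65 ± 1.58 against 2.31 ± 0.14), JhI-26 at least 174-fold (11.44 ± 0.07 against 2.38 ± 0.06), Jheh3 at least 33.6-fold (9.38 ± 0.07 against 3.78 ± 1.02) and Jheh1 24.3-fold (11.38 ± 0.38 against 6.78 ± 0.12; SD, n = 3 each; adjusted p from 3.67e-08 to 0.000347). Jhe passed the filter through the hindgut-tubule arrays alone, and JhI-26 through those and the MiT discs. Kr-h1 ran the other way, 8.92 ± 0.11 in wild-type hindgut-tubule samples and 10.39 ± 0.21 in control discs (2.76-fold, SE 0.14 on the log2 scale, adjusted p = 0.000151), as did JhI-1 by 0.60 on the log2 scale (adjusted p = 0.00624, but 0.11 after quantile normalization). Jheh2 differed by 0.35 and did not pass (adjusted p = 0.104, but 0.0302 after median centring). The median over all probe sets in this comparison was -0.34, and centring each array on its median moved these differences up by 0.21.

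The order of the 4 groups differed between genes. For JhI-26 it was mutant and wild-type hindgut-tubule samples, which overlapped, then MiT discs and last control discs, each apart from the next. For Jheh1 the order was wild-type and mutant hindgut-tubule samples, which overlapped, then MiT discs, then control discs. For Jheh2 MiT discs stood first (12.32 ± 0.09), overlapping wild-type hindgut-tubule samples (12.18 ± 0.25), which overlapped the mutant (11.86 ± 0.47) and control discs (11.82 ± 0.18; SD, n = 3 each). For Kr-h1 both disc groups stood over both hindgut-tubule groups, with overlap only within a tissue. Jheh3 had both hindgut-tubule groups over both disc groups, again with overlap within each tissue. Jhe was highest in wild-type and then mutant hindgut-tubule samples, which overlapped, and JhI-1 was higher in both disc groups than in both hindgut-tubule groups.

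The difference of differences, hindgut-tubule minus disc, was tested in 1 fit of all 12 arrays. This fit shares 1 variance per probe set over both tissues, as does the comparison between organs. Hindgut-tubule replicates spread more than disc replicates, so adjusted p from both are less certain. It passed for Jhedup (5.56, adjusted p = 3.47e-07), JhI-26 (-1.94, adjusted p = 0.0107) and Jheh1 (-1.52, adjusted p = 0.0381), where 14.9% of all probe sets passed, 6.7% as higher and 8.25% as lower. Jhedup passed the filter through the mutant arrays alone and so had to differ here too. Its wild-type samples and both disc groups read under the limit, so the size of its contrast is not known. With the array number as a block, Jhe (-1.64, adjusted p = 0.0196) and Jheh2 (-0.81, adjusted p = 0.0194) were called as well. JhI-26 was higher in the MiT discs, while in the mutant hindgut-tubule samples it had a difference of 0.53 that did not pass. Its control discs read under the background limit (2.32 to 2.45), and its disc rise is only bounded, at 1.80-fold. The contrast of -1.94 and its adjusted p therefore rest on readings under the limit, and its true size is not known. Jheh1 was higher in the MiT discs and had a difference of -0.74 that did not pass in the mutant, and its call here was lost in 10 of the 12 fits without a single array, with median centring (0.053) and without the filter (0.0975).

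Genes around the pathway were read from lists written from general knowledge, with earlier results of these data known. In the synthesis of isoprenoids and the hormone, 10 of 13 genes on the array passed the filter. Mvd (-0.54, adjusted p = 0.0108) and Acat2 (-0.34), both of the mevalonate pathway, fell in MiT discs. With 1 variance for all 12 arrays neither was called (adjusted p = 0.155 for Mvd and 0.402 for Acat2). The methyltransferase jhamt, which makes the hormone in the corpus allatum, was under the background limit in all 4 groups.

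Takeout-like proteins include many genes that RefSeq names juvenile hormone binding proteins (Jhbp). Of 21 on the array 9 were tested. Jhbp14 read 6.70, 6.12 and 5.96 in MiT discs, against 3.54, 4.08 and 3.52 in control discs, and rose at least 4.71-fold (adjusted p = 0.00187). The gene takeout (to), which acts in feeding and circadian output in adult flies, read 2.97, 3.63 and 3.74 in the mutant hindgut-tubule samples, against 5.79, 6.95 and 5.76 in wild type, and fell at least 4.49-fold (adjusted p = 0.0231; up to 0.0875, called in 10 of 15 alternatives). It passed the filter through the 3 wild-type arrays alone and so had to differ, and with no filter the adjusted p was 0.0788. No other tested member of this list passed in either comparison.

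Among 14 tested co-factors and response partners, ftz-f1, a nuclear receptor that works with the hormone receptors, rose in MiT discs. It read 6.86, 7.30 and 7.44 in MiT discs, against 4.69, 4.58 and 4.48 in control discs, with no overlap (6.13-fold, adjusted p = 0.000446). Chd64 rose by 0.44 (adjusted p = 0.00585), and br (broad), a zinc-finger factor of the larval to pupal change, fell by 1.21 on the log2 scale (adjusted p = 0.00154, but 0.302 with 1 variance for all 12 arrays and a step-up p of 0.719 in the authors' deposited table). In the mutant hindgut-tubule samples 0 of the 14 passed limma's test, against 3 higher and 0 lower at an unadjusted p under 0.05 and 0 in the authors' deposited table. Limma called 4.02% of all probe sets there, so a count of 0 lies near that share. The coactivator tai averaged 7.71 in MiT discs and 8.23 in control discs and did not pass (adjusted p = 0.0598). Of 6 tested bHLH-PAS genes 0 passed limma's test in either comparison, with 3 lower in MiT discs and 0 in the mutant at an unadjusted p under 0.05 and 0 in the authors' deposited table.

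Ecdysone, the moulting steroid, acts together with juvenile hormone, and of 21 tested ecdysone response genes 9 were lower and 1 higher in MiT discs, with a median log2 difference of -1.06 against -0.03 over all probe sets, of which 16.1% were lower and 13.9% higher. Among the lower ones were Eip78C (at least 11.8-fold, adjusted p = 0.0133), Hr4 (-3.08, adjusted p = 0.0157) and ImpE3 (-1.65), and Ldh was the higher one (1.43). With 1 variance for all 12 arrays Hr4 (adjusted p = 0.126), ImpE3 (0.315) and Ldh (0.159) were not called. Without the filter Hr4 was also lost (adjusted p = 0.0563). In the authors' deposited table the step-up p was 0.127 for Eip78C, 0.372 for Hr4, 0.745 for ImpE3 and 0.441 for Ldh. In the mutant hindgut-tubule samples 0 of 21 passed limma's test, with a median of -0.01, against 1 higher and 1 lower at an unadjusted p under 0.05 and 0 in the authors' deposited table. Limma called 4.02% of all probe sets there, so a count of 0 lies near that share. The part of the ecdysone response genes in the disc values of the juvenile hormone genes was not tested. The count of 9 came to 4 with 1 variance for all 12 arrays and to 2 in the authors' deposited table. The disc median also covers Fbp1 (-4.25), Sgs3 (-1.18) and Eig71Ee (-3.37), which were not called. These spread widely between replicate discs, with SDs of 3.73, 5.12 and 3.08 in MiT discs. The gene br is counted both here and among the co-factors, and ftz-f1 only among the co-factors.

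Jhedup belongs to the carboxylesterase family. Of 23 other carboxylesterases tested, 1 was higher and 3 lower in the mutant hindgut-tubule samples, where 2.1% and 1.92% of all probe sets were. The higher one, alpha-Est10, read 5.83, 5.99 and 6.10 in the mutant, against 4.24, 4.50 and 4.60 in wild type (2.88-fold, adjusted p = 0.0067). The lower ones were Nlg2, a neuroligin without esterase activity (at least 5.49-fold; it passed the filter through the 3 wild-type arrays alone and so had to differ), alpha-Est4 (-1.19, adjusted p = 0.0363) and alpha-Est5 (-0.93, adjusted p = 0.0354). With the array number as a block, alpha-Est4 (adjusted p = 0.0594) and alpha-Est5 (0.0501) were no longer called, and alpha-Est4 was also lost without the number 2 arrays (0.0542). In MiT discs 6 were higher and 1 lower, where 13.9% and 16.1% of all probe sets were, among them CG4757 (at least 42.7-fold), alpha-Est7 (at least 4.07-fold) and alpha-Est10 (at least 2.36-fold), and Nrt fell by 1.17. CG4757 reached the filter only with the 3 MiT discs, as it was over the limit on 1 other array. The median difference was 0.19 in the discs and -0.01 in the hindgut-tubule samples.

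**Figure D4:**
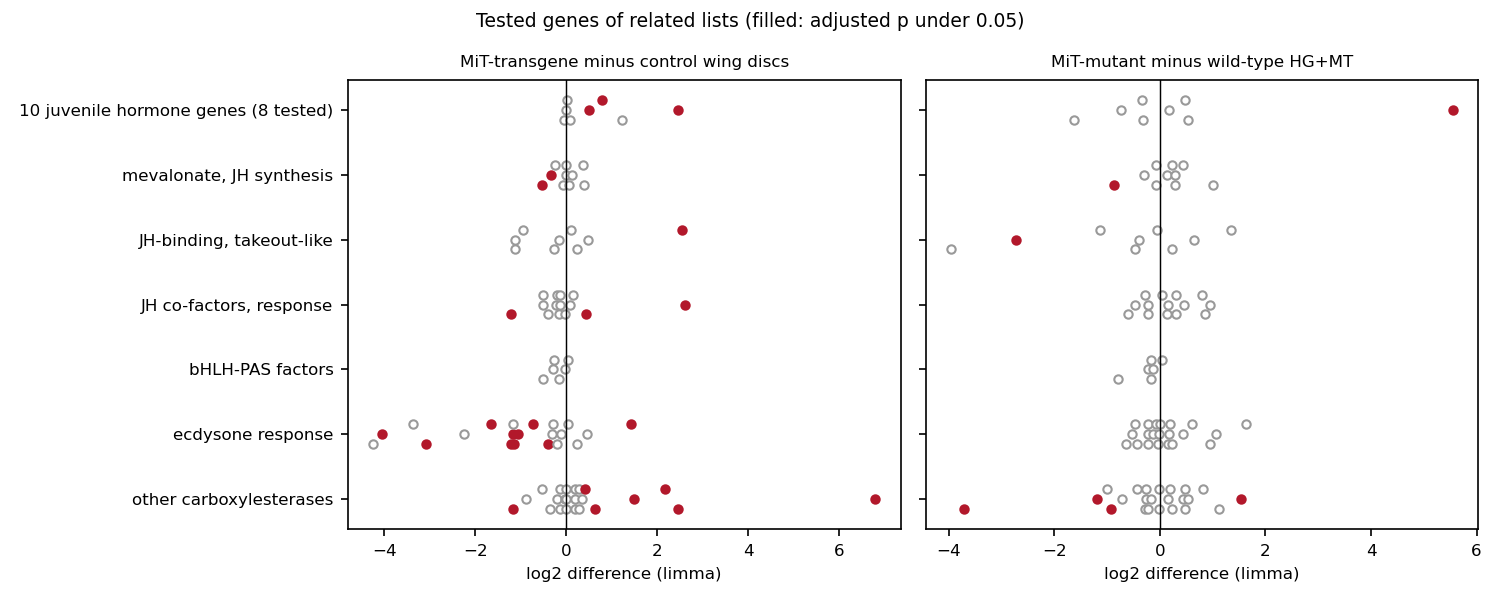
Fitted log2 differences of each tested gene by list, MiT discs minus control discs on the left and mutant minus wild-type hindgut-tubule samples on the right; filled points passed the adjusted threshold of 0.05, and each dot is 1 gene. Filled ecdysone response genes lie mostly to the left of 0 in the discs (9 lower, 1 higher), and Jhedup lies furthest to the right among the hindgut-tubule points (5.56).

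Markers of other cell types were read in the discs, where limma called 13.9% of all probe sets tested as higher and 16.1% as lower in MiT discs. Of 8 hemocyte markers 6 were higher in MiT discs, with log2 sums of 13.07 to 13.38 in MiT discs and 12.56 to 12.76 in control discs, and 5 of 9 larval muscle markers were higher (16.50 to 16.77 in MiT discs, 16.09 to 16.46 in control discs). Fat body sums were 14.02, 10.18 and 7.05 in MiT discs and 13.79, 12.43 and 14.64 in control discs. Of the 7 fat body markers 0 passed limma's test in the discs. At an unadjusted p under 0.05, 0 were higher and 1 lower, against 0 in the authors' deposited table. Ring gland markers summed to 7.05 to 7.32 in MiT discs and 8.40 to 9.59 in control discs, with jhamt, dib, nvd and Akh under the limit in both. Of these markers spok averaged 4.10 ± 1.44 in MiT discs and 8.31 ± 1.18 in control discs (SD, n = 3 each; adjusted p = 0.0187), and sad, which was not tested, 2.59 in MiT discs and 5.26 in control discs. Of 8 tested wing disc markers 5 were lower in MiT discs (sums of 13.13 to 13.21 in MiT discs, 13.49 to 13.65 in control discs). Of 3 tested tracheal markers 2, serp and Gasp, were higher (13.90 to 14.02 in MiT discs, 13.02 to 13.16 in control discs). The tracheal gene trh averaged 10.03 in MiT discs and 10.32 in control discs and did not pass (adjusted p = 0.218). The tracheal gene btl, which was not tested, averaged 2.50 in MiT discs and 4.11 in control discs. The part of these cells in the Jheh1, Jheh2 and JhI-26 values was not tested.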

How the data were processed

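The authors deposited expression values on the log2 scale, made with GCRMA per the submitters' processing notes, which subtracts background and normalizes between arrays; its version is not stated there. They also deposited, per the file headers, an analysis of variance with p-values and a signed fold score; these entered 1 alternative, and 12 sample columns of that table were not used. Probe sets were named by RefSeq accession or symbol: 13978 of 18769 had 1 gene, 805 several and 3985 none. Differences were fitted with limma 3.58.1 in R 4.3.3 (lmFit, eBayes, trend and robust off, 4 residual degrees of freedom per tissue fit), because the mean replicate SD was 0.37 and 0.34 in mutant and wild-type hindgut-tubule samples and 0.15 and 0.18 in MiT and control discs. On simulated data larger changes were recovered more often than smaller ones, and false calls exceeded the nominal share in every comparison, so calls near the threshold are uncertain. The number of arrays limits the precision.

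Members and lists were chosen with earlier results of these data known. Named genes are all members, list genes that passed (at most 4 per list, direction and comparison), the 3 probe sets most correlated with each member called in any comparison, and Mitf; others named were chosen after their values were seen. Deviations of same-numbered hindgut-tubule arrays correlated at 0.29, 0.38 and 0.14, so their numbers may pair the samples, which comes from the data alone. The reported fits are unpaired, and the number enters as a block only in an alternative. Deviations of same-numbered disc arrays correlated at 0.33, -0.05 and -0.18. Alternatives were other filters, fits, scalings, array weights and leaving out arrays. The result of 1 list gene is not reported here.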

Additional observations from a re-analysis of the deposited data

Results flagged for a closer look

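For 3 genes the difference between mutant and wild-type hindgut-tubule samples was unlike that between MiT and control discs, by limma's contrast over all 12 arrays: Jhedup (5.56 on the log2 scale, adjusted p = 3.47e-07; it passed the filter through the mutant arrays alone and so had to differ), JhI-26 (-1.94, adjusted p = 0.0107) and Jheh1 (-1.52, adjusted p = 0.0381). Jhedup was under the background limit on every array outside the mutant samples, and JhI-26 on every control disc. The size of either contrast is therefore not known. The 2 genotype contrasts are not the same kind, and in these genes only 1 of the 2 differences passed its own test. Groups of 3 are too small for Dixon's test, which was not run.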

How the results depend on the processing

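Over the genes named, 739 of 824 values under the alternatives kept direction and call. Counts moved most. With all 12 arrays in 1 fit, 619 probe sets were higher and 457 lower in MiT discs (1209 and 1395 as reported), with 1 member higher (3) and 5 list genes lower (12), and 702 and 626 in the mutant (182 and 167), with 7 and 8 list genes (1 and 5). The authors' table gave 419 and 284 in discs with 1 member higher and 4 list genes lower, and 468 and 394 in the mutant with 3 list genes higher. The replicate block gave 837 lower in discs, 4 members lower in the difference of differences (2 as reported), and 2 and 2 list genes in the mutant; 148 and 146 were called in the mutant, and no member's call within a tissue changed. Array weights gave 998 and 770 in the mutant with 2 members (Jhe and Jheh1) lower and 10 and 9 list genes, and 1664 and 1249 in the difference of differences (581 and 716) with 2 members higher and 4 lower. Without the number 2 arrays, added after the data were seen, these were 443 and 354, 2 members lower and 5 list genes higher, and 1606, 1211 and 4 members lower. No filter and median centring each left 1 member lower in the difference of differences, and no filter left 1 list gene lower in the mutant, the stricter filter 0 higher and 3 lower. Quantile normalization left 1 member lower between tissues. Without single arrays, calls ranged from 767 to 1050 higher and 668 to 1165 lower in discs, 48 to 233 and 58 to 166 in the mutant, 378 to 1210 and 518 to 915 in the difference of differences with 1 to 3 members lower, and 1 to 5 list genes lower in the mutant. The disc counts were lowest without MiT disc 2. The mutant counts were lowest without mutant array 3, and the counts without mutant array 1 or wild-type array 1 or 3 were also under those reported by over 1.5 times. The difference of differences had its fewest higher calls without MiT disc 2 and its most without mutant array 2. Kr-h1 in the discs turned to -0.0415 without control disc 2 and to -0.0003 without MiT disc 2, in a range of -0.0415 to 0.173 without single arrays. The cause was not tested. Array weights used limma's gene-by-gene method, since the default did not converge. Each member had 1 probe set, so no other probe set could be tried.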
